A study of Homo sapiens with 5 samples.

Results

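The genes described here are the G0/G1 switch 2 gene G0S2 and 9 genes of lipid storage and use, PNPLA2, ABHD5, PLIN2, PLIN3, DGAT1, ACACA, FASN, SCD and CPT1A. They were taken by gene symbol from the deposited tables, and all 10, of 19716 genes with a read, had reads in all 5 libraries. G0S2 was put at the head of the set, chosen by its measured ratios to the control in these same libraries (higher with 1 fusion and lower with 2), so its pattern is given as a description and is not tested. The other 9 were taken for their roles, with their values known. HEK293T, the line used, descends from human embryonic kidney. In 4 of the libraries the cells had been transfected with 5 sgRNAs that target the uPA promoter (the gene is PLAU) and with a catalytically dead Cas9 (dCas9) joined to a blue fluorescent protein (BFP) and to a partner. The partner was the catalytic domain of DNMT1, DNMT3A or DNMT3B, or EGFP, which has no methyltransferase activity, and the groups are named after it, from dCas9-BFP-DNMT1 to dCas9-BFP-EGFP. At the uPA promoter the study measured raised CpG methylation with the DNMT3A and DNMT3B fusions, and none with the DNMT1 or EGFP fusion. The control cells received the plasmid pUC19 alone. All groups received 1 ug of plasmid through X-tremeGENE 9, and RNA was taken at 48 h from cells sorted for BFP. pUC19 encodes no BFP, and how the control cells passed that sort is not given in the sources used here. The constructs were expressed transiently, and no group carried BFP without dCas9 and the sgRNAs, so these 3 cannot be told apart in any comparison with pUC19. Each group had 1 library, so the differences between single libraries have no replicate check.

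Cells keep neutral fat as triglyceride in lipid droplets, whose surface is covered by perilipins such as PLIN2 and PLIN3. Triglyceride is broken down first by the lipase ATGL, the product of PNPLA2, which is activated by ABHD5 (also named CGI-58) and inhibited by G0S2. Fatty acids are made from cytosolic acetyl-CoA by acetyl-CoA carboxylase (ACACA) and fatty acid synthase (FASN), and SCD puts the first double bond into the saturated product. DGAT1 adds the last acyl chain of a triglyceride, and CPT1A carries fatty acids into mitochondrial oxidation. G0S2 is best known from adipose tissue and liver, where it is abundant and follows feeding, and from blood cells entering the cell cycle.

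The libraries held between 26250000 (dCas9-BFP-EGFP) and 36140000 (pUC19) reads on genes, and 3 reads, taken as the smallest amount that a library could show, corresponded to 0.083 to 0.114 reads in each 1000000. PLAU had 106 reads with pUC19 and 1 to 6 reads with the fusions. All 5 markers listed for HEK293T (PAX2, VIM, NEFM, KRT8 and KRT18) were present. NEFM, a neurofilament gene, was at 193 TPM (transcripts per 1000000, which are reads divided by transcript length and scaled to a fixed total per library) with pUC19 and 34.3 to 60.2 TPM with the fusions, and the part of this difference in the results below was not tested. The 5 markers had a summed level of 677 to 858 TPM. Of 6 adipocyte markers, 4 stayed under 1 TPM in every library, among them FABP4, which had no reads. The summed level of the 6, 14.8 to 23.9 TPM, was mostly CFD (11.1 to 20.9 TPM). Hepatocyte markers summed to 1.14 to 1.99 TPM and blood cell markers to 0.923 to 1.49 TPM. In bulk RNA such as this, fewer cells that express a gene and less RNA of that gene per cell cannot be told apart. In the dCas9-BFP-DNMT1 library the median gene lay 0.15 log2 units below pUC19 in TPM, and 0.03 below once the libraries were scaled by TMM, so small differences of that library depend on the scaling.

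G0S2 (NCBI gene 50486; GRCh37, chr1:209848757-209849735, plus strand) encodes a small protein that binds and inhibits ATGL. In the annotation no exon of another gene overlaps it. It was a gene of moderate to low level, since 41.8% of the genes detected with pUC19 had a lower TPM there. The level was 15.0 TPM with dCas9-BFP-EGFP, 5.39 TPM with pUC19, 4.96 TPM with dCas9-BFP-DNMT1, 1.91 TPM with dCas9-BFP-DNMT3B and 1.61 TPM with dCas9-BFP-DNMT3A. These values rest on 166, 84, 60, 21 and 20 reads, in the same order. The reads covered 68.3% (dCas9-BFP-DNMT3A) to 87.0% (dCas9-BFP-DNMT1) of the transcript. The 95% exact counting interval was 12.8 to 17.5 TPM with dCas9-BFP-EGFP, above those of all other libraries, and 4.30 to 6.67 TPM with pUC19. The interval of dCas9-BFP-DNMT1, 3.78 to 6.38 TPM, overlapped that of pUC19. Those of dCas9-BFP-DNMT3A (0.981 to 2.48 TPM) and dCas9-BFP-DNMT3B (1.18 to 2.91 TPM) overlapped each other and lay below the rest. By these intervals G0S2 stood at 3 levels, the EGFP fusion highest, pUC19 and the DNMT1 fusion between, and both de novo methyltransferase fusions lowest. G0S2 had been chosen by its ratios in these same libraries, so this separation is a description. The intervals here and below cover counting error only, since PCR copies were not told apart by molecular identifiers, and they leave out differences between cultures.

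**Figure D1:**
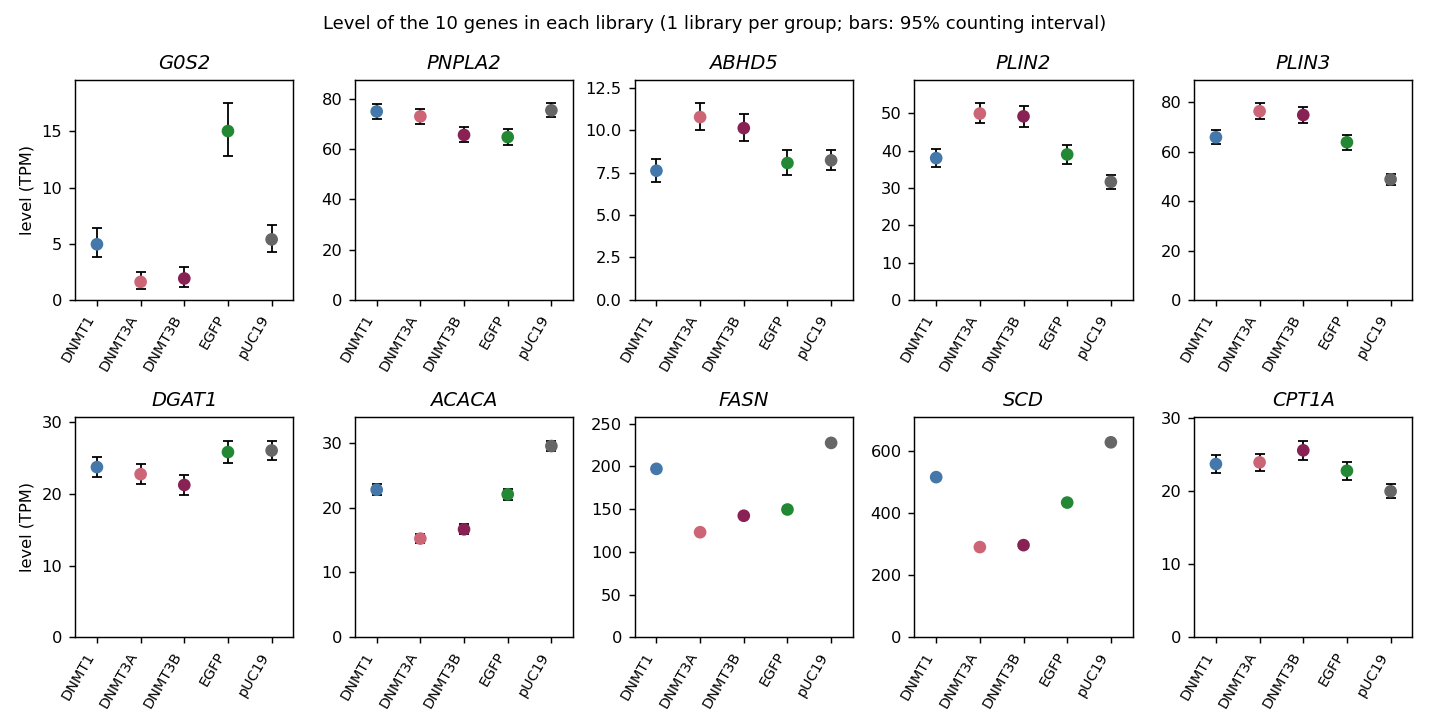
Level in TPM (vertical axis, starting at 0, a different scale for each gene) of the 10 genes in the 5 libraries (horizontal axis), with 95% exact counting intervals as bars. G0S2 runs from 1.61 TPM with dCas9-BFP-DNMT3A to 15.0 TPM with dCas9-BFP-EGFP, while ACACA, FASN and SCD are all highest with pUC19 and lowest with dCas9-BFP-DNMT3A.

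Compared to pUC19, the log2 ratio of G0S2 (of TPM + 0.1) was 1.46 with dCas9-BFP-EGFP (95% counting interval 1.09 to 1.88), a 2.76-fold higher level. It was -1.69 with dCas9-BFP-DNMT3A (-2.53 to -1.03), a 3.22-fold lower level, and -1.45 with dCas9-BFP-DNMT3B (-2.26 to -0.80), a 2.73-fold lower level. With dCas9-BFP-DNMT1 it was -0.12 (-0.62 to 0.38), a difference within counting error whose sign turned with TMM scaling (0.01). All 4 ratios share the 84 reads of the 1 pUC19 library. Set against dCas9-BFP-EGFP instead, which shares dCas9, BFP and the sgRNAs, G0S2 was lower with the other 3 fusions. The log2 ratio was -1.58 with dCas9-BFP-DNMT1 (-2.05 to -1.17), -3.15 with dCas9-BFP-DNMT3A (-3.98 to -2.55) and -2.92 with dCas9-BFP-DNMT3B (-3.71 to -2.32). The dCas9-BFP-DNMT3A and dCas9-BFP-DNMT3B libraries differed from each other by a log2 ratio of -0.24, with an interval of -1.21 to 0.71. Removing the trend of the ratios on transcript GC content and length left the differences from pUC19 at -1.65 (dCas9-BFP-DNMT3A), -1.27 (dCas9-BFP-DNMT3B) and 1.595 (dCas9-BFP-EGFP).

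The start regions of G0S2 and SCD are shown as a description of their sequence. SCD is the other of the 10 genes that passed the study's thresholds of change with dCas9-BFP-DNMT3A and dCas9-BFP-DNMT3B. The sequences are RefSeq promoter windows of 250 bases before and 50 bases after the start, matched exactly to GRCh37 and written 5′ to 3′ on the plus strand, the strand of both genes. For G0S2 (chr1:209848507-209848806) capitals mark CG dinucleotides, and for SCD (chr10:102106740-102107039) they mark the CCAAT motif.
G0S2 promoter: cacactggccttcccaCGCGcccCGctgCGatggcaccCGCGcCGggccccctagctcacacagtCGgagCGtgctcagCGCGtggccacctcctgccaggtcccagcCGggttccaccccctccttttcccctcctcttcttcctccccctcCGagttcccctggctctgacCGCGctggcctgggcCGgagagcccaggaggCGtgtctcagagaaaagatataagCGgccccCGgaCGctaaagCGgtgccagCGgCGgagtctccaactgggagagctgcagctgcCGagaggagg
SCD promoter: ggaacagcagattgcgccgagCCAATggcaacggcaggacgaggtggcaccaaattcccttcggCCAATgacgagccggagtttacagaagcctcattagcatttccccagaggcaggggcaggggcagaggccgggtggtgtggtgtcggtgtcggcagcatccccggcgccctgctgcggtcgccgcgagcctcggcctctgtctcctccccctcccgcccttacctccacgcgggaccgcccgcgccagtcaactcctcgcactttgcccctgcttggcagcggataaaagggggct
The G0S2 window holds 24 CG dinucleotides, at an observed to expected ratio of 0.688, more than 66.1% of the 35116 promoter windows in the table, whose median is 14, and close to the median of 25 among promoters of genes at 1 TPM or more with pUC19. The SCD window holds 25. CCAAT, searched on both strands, is found 2 times in the SCD window and not in the G0S2 window, and 34.6% of all windows hold it. GGGCGG, the core of a GC box, also searched on both strands, is found 2 times at SCD and not at G0S2. It is held by 45% of all windows and by 66% of those of genes at 1 TPM or more with pUC19. Of the 10 genes, 8 have windows in the table (12 windows, with 5 to 53 CG dinucleotides), and DGAT1 and FASN do not. The files used here hold no methylation values, so these letters are a description of the sequence alone.

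A gene was called different between 2 libraries when its adjusted p-value in an exact conditional binomial test did not exceed 0.001 and its ratio of TPM + 0.1 was at least 2, the thresholds of the study. Such a call compares 2 libraries and not the conditions. With dCas9-BFP-DNMT3A, 2 of the 10 genes were called lower (G0S2 and SCD) and 0 higher, against 4.96% and 4.4% of all genes tested. With dCas9-BFP-DNMT3B the same 2 genes were called lower and 0 higher, against 4.29% and 4.47% of all genes. With dCas9-BFP-EGFP, 1 gene (G0S2) was called higher and 0 lower, against 2.6% and 3.1% of all genes. With dCas9-BFP-DNMT1 none of the 10 was called, against 1.53% of all genes called higher and 3.63% lower. SCD lay just inside the 2-fold limit in both de novo methyltransferase libraries, and ACACA (log2 ratio -0.95 with dCas9-BFP-DNMT3A) and FASN (-0.89) lay just outside it. G0S2 was chosen for these calls, so they are a description of it.

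PNPLA2 (GRCh37, chr11:818914-825573, plus strand), the lipase that G0S2 inhibits, varied least of the 10 genes. Its level was 75.4 TPM with pUC19, 74.9 with dCas9-BFP-DNMT1, 73.0 with dCas9-BFP-DNMT3A, 65.6 with dCas9-BFP-DNMT3B and 64.7 with dCas9-BFP-EGFP, on 1786 to 2937 reads. The log2 ratios to pUC19 were -0.01 (-0.09 to 0.07) with dCas9-BFP-DNMT1, -0.05 (-0.13 to 0.03) with dCas9-BFP-DNMT3A, -0.20 (-0.29 to -0.12) with dCas9-BFP-DNMT3B and -0.22 (-0.31 to -0.13) with dCas9-BFP-EGFP. Against dCas9-BFP-EGFP, the library with the highest G0S2, the log2 ratio of PNPLA2 was 0.17 (0.08 to 0.26) with dCas9-BFP-DNMT3A, beyond counting error, and 0.02 (-0.08 to 0.11) with dCas9-BFP-DNMT3B, within it. The transcript is rich in GC (64.8%), and with the trend on GC content and length removed both turned sign, to -0.20 and -0.26, and the ratios of dCas9-BFP-DNMT3A and dCas9-BFP-DNMT3B to pUC19 were -0.34 and -0.40.

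ABHD5 (chr3:43731600-43775863, plus strand), the activator of the same lipase, was at 10.8 TPM with dCas9-BFP-DNMT3A, 10.1 with dCas9-BFP-DNMT3B, 8.22 with pUC19, 8.06 with dCas9-BFP-EGFP and 7.61 with dCas9-BFP-DNMT1. Both de novo methyltransferase libraries lay above the other 3, whose intervals overlapped. The log2 ratio to pUC19 was 0.39 (0.24 to 0.54) with dCas9-BFP-DNMT3A and 0.30 (0.14 to 0.46) with dCas9-BFP-DNMT3B, and that of dCas9-BFP-EGFP was -0.03 (-0.20 to 0.14). The transcript is long and poor in GC (37%), and with the trend on GC content and length removed these became 0.71, 0.58 and 0.05, while dCas9-BFP-DNMT1 moved from -0.11 to 0.23. Exons of ABHD5 overlap those of ANO10 on the opposite strand, and whether the reads were counted by strand is not stated, so part of its reads could belong to ANO10.

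PLIN2 (chr9:19108373-19149288, minus strand) and PLIN3 (chr19:4838353-4867706, minus strand), the perilipins of cells that are not adipocytes, were both lowest with pUC19 and higher with the 2 de novo methyltransferase fusions than with the others. PLIN2 was at 49.97 TPM with dCas9-BFP-DNMT3A, 49.2 with dCas9-BFP-DNMT3B, 39.0 with dCas9-BFP-EGFP, 38.0 with dCas9-BFP-DNMT1 and 31.7 with pUC19. By counting error its libraries also stood at 3 levels, with the 2 de novo methyltransferase fusions together at the top, the other 2 fusions together below them, and pUC19 lowest. The log2 ratio of PLIN2 to pUC19 was 0.66 (0.54 to 0.78) with dCas9-BFP-DNMT3A and 0.26 (0.14 to 0.39) with dCas9-BFP-DNMT1, the largest and smallest of the 4.

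PLIN3 followed the same order of levels except that the DNMT1 and EGFP fusions changed places. It was at 76.4 TPM with dCas9-BFP-DNMT3A, 74.9 with dCas9-BFP-DNMT3B, 65.9 with dCas9-BFP-DNMT1, 63.8 with dCas9-BFP-EGFP and 48.8 with pUC19. Its log2 ratios to pUC19 ran from 0.39 (0.29 to 0.48, dCas9-BFP-EGFP) to 0.65 (0.56 to 0.74, dCas9-BFP-DNMT3A). Against dCas9-BFP-EGFP the log2 ratio of PLIN3 was 0.26 with dCas9-BFP-DNMT3A and 0.23 with dCas9-BFP-DNMT3B, and 0.10 and 0.15 with the GC and length trend removed. All 8 ratios of these 2 genes to the 1 pUC19 library were above counting error, and none reached 2-fold. PLIN1, the perilipin of adipocytes, was at 1.28 TPM with pUC19 and 1.78 to 1.93 TPM with the fusions.

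ACACA, FASN and SCD, which act one after the other in fatty acid synthesis, stood in the same order of libraries: pUC19, dCas9-BFP-DNMT1, dCas9-BFP-EGFP, dCas9-BFP-DNMT3B and dCas9-BFP-DNMT3A. SCD (chr10:102106990-102124583, plus strand) was among the most abundant transcripts of these cells, above 99% of the detected genes with pUC19. It was at 629 TPM with pUC19, 516 with dCas9-BFP-DNMT1, 434 with dCas9-BFP-EGFP, 297 with dCas9-BFP-DNMT3B and 291 with dCas9-BFP-DNMT3A, on 18310 to 54858 reads. At this depth every step of that order was above counting error, although the last was small (log2 ratio of dCas9-BFP-DNMT3A to dCas9-BFP-DNMT3B -0.03, -0.060 to -0.002). Compared to pUC19, SCD was 2.16-fold lower with dCas9-BFP-DNMT3A (log2 ratio -1.11, -1.14 to -1.09), 2.12-fold lower with dCas9-BFP-DNMT3B (-1.08, -1.11 to -1.06), 1.45-fold lower with dCas9-BFP-EGFP (-0.53, -0.56 to -0.51) and 1.22-fold lower with dCas9-BFP-DNMT1 (-0.28, -0.30 to -0.27). Against dCas9-BFP-EGFP the log2 ratio was -0.58 with dCas9-BFP-DNMT3A and -0.55 with dCas9-BFP-DNMT3B, but 0.25 with dCas9-BFP-DNMT1.

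FASN (chr17:80036214-80056170, minus strand) was at 228 TPM with pUC19, 197 with dCas9-BFP-DNMT1, 150 with dCas9-BFP-EGFP, 142 with dCas9-BFP-DNMT3B and 123 with dCas9-BFP-DNMT3A. Here the EGFP fusion stood close to the de novo methyltransferase fusions, since the log2 ratio of dCas9-BFP-DNMT3B to dCas9-BFP-EGFP was -0.07 (-0.11 to -0.04). Its log2 ratios to pUC19 were -0.89 with dCas9-BFP-DNMT3A, -0.68 with dCas9-BFP-DNMT3B, -0.61 with dCas9-BFP-EGFP and -0.21 with dCas9-BFP-DNMT1, the last of which was -0.08 with TMM scaling. The FASN transcript is rich in GC (65.3%), and with the trend on GC content and length removed it passed the 2-fold limit with dCas9-BFP-DNMT3A (-1.20) and dCas9-BFP-DNMT3B (-1.06), which brings the genes of the set called lower to 3 in each of those libraries. The share of all genes called in that setting is not given here.

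ACACA (chr17:35441927-35766927, minus strand), whose product makes the malonyl-CoA that FASN uses, was at 29.5 TPM with pUC19, 22.7 with dCas9-BFP-DNMT1, 22.0 with dCas9-BFP-EGFP, 16.6 with dCas9-BFP-DNMT3B and 15.2 with dCas9-BFP-DNMT3A. The DNMT1 and EGFP fusions did not differ beyond counting error (log2 ratio 0.05, -0.03 to 0.12). Its log2 ratio to pUC19 was -0.95 (-1.03 to -0.88) with dCas9-BFP-DNMT3A and -0.82 (-0.90 to -0.75) with dCas9-BFP-DNMT3B, and it was -0.37 to -0.42 with the other 2 fusions.

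DGAT1 (chr8:145538247-145550573, minus strand) varied from 26.1 TPM with pUC19 and 25.8 with dCas9-BFP-EGFP to 23.7 with dCas9-BFP-DNMT1, 22.8 with dCas9-BFP-DNMT3A and 21.3 with dCas9-BFP-DNMT3B. Its log2 ratio to pUC19 was -0.29 (-0.42 to -0.17) with dCas9-BFP-DNMT3B and -0.20 (-0.31 to -0.08) with dCas9-BFP-DNMT3A. The transcript is rich in GC (63.1%), and these became -0.53 and -0.47 with the GC and length trend removed. Exons of DGAT1 overlap those of HSF1 on the opposite strand, so its reads carry the same doubt as those of ABHD5. A long noncoding RNA on the same strand also overlaps DGAT1, which counting by strand would not separate, and PNPLA2 and PLIN3 each overlap a long noncoding RNA on the opposite strand. CPT1A (chr11:68522088-68611878, minus strand) was lowest with pUC19, at 19.9 TPM, and stood at 22.7 TPM with dCas9-BFP-EGFP, 23.7 with dCas9-BFP-DNMT1, 23.9 with dCas9-BFP-DNMT3A and 25.5 with dCas9-BFP-DNMT3B. The 4 ratios of CPT1A to pUC19 were above counting error, with log2 values of 0.19 to 0.36.

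**Figure D2:**
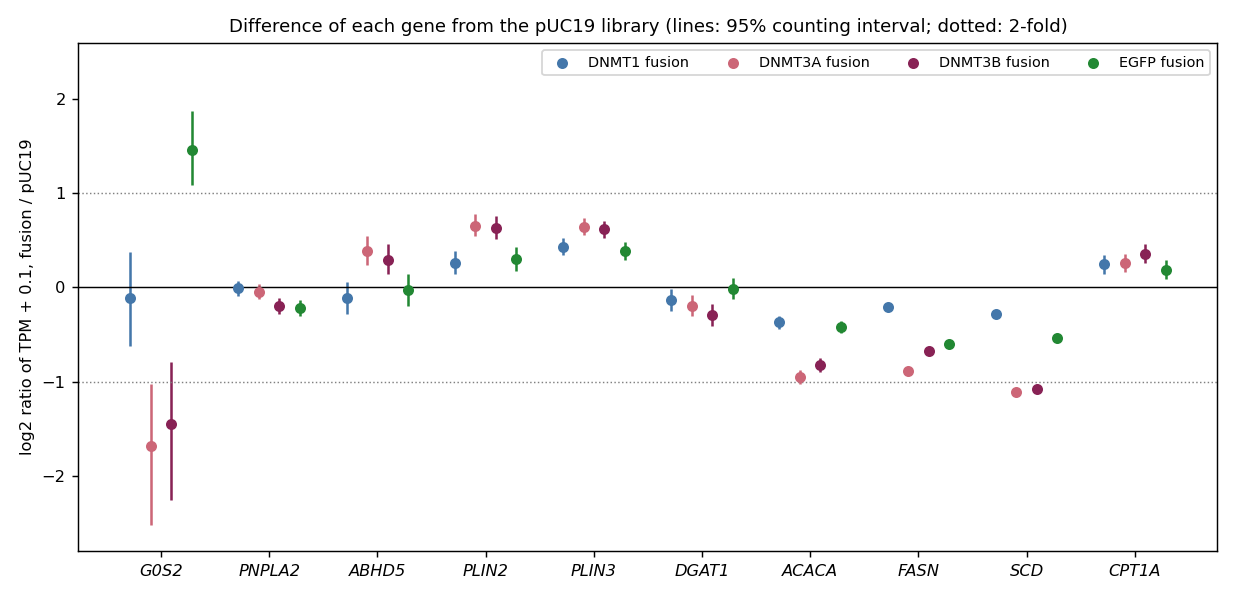
Log2 ratio of TPM + 0.1 of each fusion library to the pUC19 library (vertical axis) for the 10 genes (horizontal axis), with 95% exact counting intervals as lines and dotted lines at a 2-fold difference. G0S2 is the only gene beyond 2-fold on both sides (1.46 with dCas9-BFP-EGFP, -1.69 with dCas9-BFP-DNMT3A), PLIN2, PLIN3 and CPT1A lie above 0 with every fusion, and ACACA, FASN and SCD lie below it.

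The highest level of G0S2 was 9.36 times its lowest over the 5 libraries, while in the other 9 genes this ratio ran from 1.17 (PNPLA2) to 2.16 (SCD). G0S2 had been chosen by its ratios in these libraries, and its 20 to 166 reads were the fewest of the 10 genes. The median log2 ratio of the 10 genes to pUC19 was -0.11 with dCas9-BFP-DNMT1, -0.12 with dCas9-BFP-DNMT3A, -0.25 with dCas9-BFP-DNMT3B and -0.02 with dCas9-BFP-EGFP, beside -0.15, -0.06, -0.05 and -0.003 over all genes tested. Within the set, the 3 genes of fatty acid synthesis lay below pUC19 and the 2 perilipins above it with every fusion.

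To set the 10 genes beside the rest of lipid metabolism, 93 genes in 7 functional lists were followed, of which 89 had a row in the tables (CIDEA, MOGAT1, MOGAT2 and FABP4 did not). With dCas9-BFP-DNMT1, 2 were called higher and 3 lower, with dCas9-BFP-DNMT3A 0 and 5, with dCas9-BFP-DNMT3B 2 and 6, and with dCas9-BFP-EGFP 4 and 4. The counts include the calls of G0S2 with the DNMT3A, DNMT3B and EGFP fusions, by which it was chosen, and are a description. As shares of the 89 genes these were 2.25% and 3.37%, 0% and 5.62%, 2.25% and 6.74%, and 4.49% and 4.49% in that order, to be read beside the shares of all genes given above. The widest gap to them was in genes called higher with dCas9-BFP-DNMT3A, 0% against 4.4%. The median log2 ratio to pUC19 of the droplet coat and assembly list was above 0 with all 4 fusions (0.16 to 0.37), and that of the 12 fatty acid synthesis genes was below 0 with all 4 (-0.36 to -0.19), and both held with TMM scaling and with the GC and length trend removed. The triglyceride synthesis list had medians of 0.20 to 0.33. The fatty acid oxidation list had medians of -0.06, -0.12, -0.25 and 0.07 with the DNMT1, DNMT3A, DNMT3B and EGFP fusions, which became 0.17, -0.05, 0.001 and 0.10 with the GC and length trend removed, and the DNMT1 median also turned with TMM scaling (0.07). All of these ratios share the pUC19 library.

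Among genes of at least 10 TPM, ACSL4, which activates arachidonic acid and similar long fatty acids, was called lower with all 4 fusions. It was at 24.01 TPM with pUC19, 11.46 with dCas9-BFP-DNMT1, 9.21 with dCas9-BFP-DNMT3A, 11.6 with dCas9-BFP-DNMT3B and 10.4 with dCas9-BFP-EGFP. With the GC and length trend removed its calls with dCas9-BFP-DNMT1 (log2 ratio from -1.06 to -0.71) and dCas9-BFP-DNMT3B (from -1.04 to -0.75) ended, the former also with TMM scaling (-0.93) and the latter with a pseudocount of 1 TPM (-0.99). HILPDA, a droplet protein that also inhibits ATGL, was at 48.5 TPM with pUC19 and at 19.9, 25, 26.4 and 22.8 TPM with the DNMT1, DNMT3A, DNMT3B and EGFP fusions. This second inhibitor of the lipase was therefore lower than pUC19 with every fusion, the EGFP fusion included, where G0S2 was higher, and it was called with dCas9-BFP-DNMT1 (log2 ratio -1.28, -1.46 to -1.11) and dCas9-BFP-EGFP (-1.09, -1.26 to -0.92). The call with dCas9-BFP-EGFP ended with the GC and length trend removed (-0.97). ACLY, which makes cytosolic acetyl-CoA for ACACA, was at 516 TPM with pUC19, 335 with dCas9-BFP-DNMT1, 376 with dCas9-BFP-EGFP, 229 with dCas9-BFP-DNMT3B and 214 with dCas9-BFP-DNMT3A, and was called lower with both de novo methyltransferase fusions.

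Those called higher at 10 TPM or more were LPIN1, LPIN2 and SREBF1. LPIN1, a phosphatidate phosphatase of triglyceride synthesis, was at 12.1 TPM with pUC19 and 14.0, 22.7, 24.9 and 21.1 TPM with the DNMT1, DNMT3A, DNMT3B and EGFP fusions, and was called with dCas9-BFP-DNMT3B (log2 ratio 1.04, 0.93 to 1.16), a call that ended with a pseudocount of 1 TPM (0.985). LPIN2, of the same family, was at 8.90 TPM with pUC19 and 22.9 TPM with dCas9-BFP-EGFP, where it was called, and 10.5 to 14.6 TPM with the others. SREBF1, the transcription factor of fatty acid synthesis genes, was at 17.7 TPM with pUC19 and 32.0 to 39.0 TPM with the fusions, and was called with dCas9-BFP-EGFP (log2 ratio 1.14, 1.05 to 1.24). Its level and those of ACACA, FASN and SCD thus lay on opposite sides of pUC19. ELOVL5, which lengthens polyunsaturated fatty acids, was called lower with dCas9-BFP-EGFP (46.1 against 97.3 TPM, log2 ratio -1.08), just past the limit, and was not called with the GC and length trend removed (-0.999). The remaining calls, of BSCL2, FABP3, LPL, CPT1B and PPARGC1A, were in genes under 10 TPM in both libraries and are named because they complete the counts, and of these only FABP3 was still called with a pseudocount of 1 TPM. BSCL2 and CPT1B overlap annotated read-through genes, so their reads are uncertain.

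**Figure D3:**
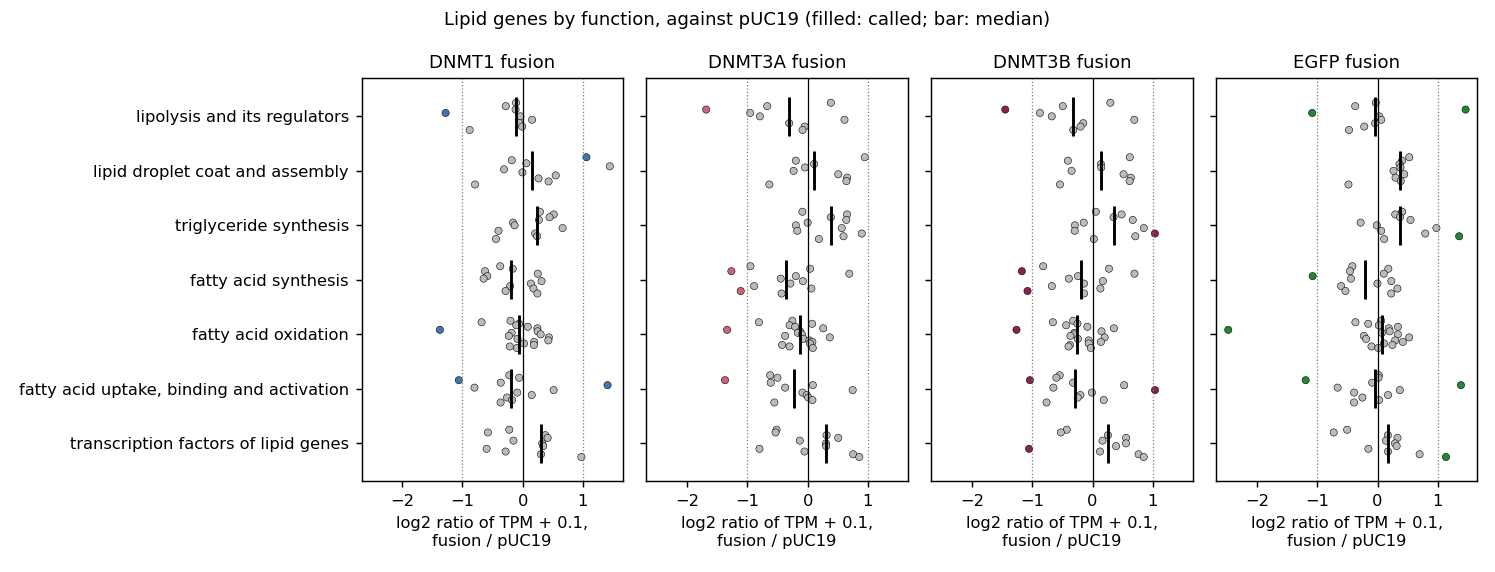
Log2 ratio of TPM + 0.1 to pUC19 (horizontal axis) of the lipid genes at 1 TPM or more in either library, in 7 functional lists (vertical axis), with 1 panel for each fusion. Each point is a gene, filled in colour where it was called, the black bar is the median of the list, and the dotted lines mark a 2-fold difference. Medians of the droplet coat list lie above 0 and those of the fatty acid synthesis list below 0 in all 4 panels.

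To compare fusions without the pUC19 library, dCas9-BFP-DNMT3A and dCas9-BFP-DNMT3B, which carry de novo methyltransferase domains, were tested against dCas9-BFP-DNMT1 and dCas9-BFP-EGFP with the quasi-likelihood test of edgeR. The constructs of a kind stand in for replicates there, so that differences within each pair are taken as the spread. SCD (log2 fold change -0.76, SE 0.15, adjusted p = 0.0162) and ACACA (-0.55, SE 0.13, adjusted p = 0.0299) fell, and the other 7 of the 9 genes tested, without G0S2, did not pass. The 9 genes were taken with their values in these libraries known, so their p-values are a description and not independent support. The log2 fold change of FASN was -0.45 (SE 0.17, adjusted p = 0.121). That of ABHD5 was 0.36 (SE 0.15, adjusted p = 0.147) and that of PLIN2 was 0.31 (SE 0.13, adjusted p = 0.163). DGAT1 (-0.23), PLIN3 (0.17), PNPLA2 (-0.07) and CPT1A (0.03) had adjusted p-values between 0.302 and 0.899. Over all 15332 genes tested, 6.9% passed higher and 4.15% lower, with a median log2 fold change of -0.01.

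Of the 84 lipid list genes in this test, 0 passed higher and 9 lower, and the median log2 fold change was -0.14. Fatty acid synthesis held 4 of the 9 among its 12 genes, SCD, ACACA, ACLY (-0.74, SE 0.12, adjusted p = 0.00797) and SCD5 (-0.58, SE 0.15, adjusted p = 0.0391), a second stearoyl-CoA desaturase. LIPA, the acid lipase of lysosomes, fell most among the 9 (-0.79, SE 0.12, adjusted p = 0.0075), from 102 and 107 TPM with the DNMT1 and EGFP fusions to 60.6 and 65.6 TPM with DNMT3A and DNMT3B. HADHA, the large subunit of the mitochondrial trifunctional enzyme of fatty acid oxidation, fell from 256 and 267 TPM to 167 and 173 TPM (-0.67, SE 0.11, adjusted p = 0.00961) and was the 1 of 19 oxidation genes to pass. The acyl-CoA synthetases ACSL3 (-0.59, adjusted p = 0.0199) and ACSL1 (-0.54, adjusted p = 0.0352) and the acyltransferase AGPAT1 of glycerolipid synthesis (-0.42, adjusted p = 0.0493) made up the rest. AGPAT1 was at 139 TPM with pUC19, 170 and 185 TPM with the DNMT1 and EGFP fusions, and 131 and 145 TPM with DNMT3A and DNMT3B. The pUC19 levels of SCD5 (38.2 TPM) and HADHA (224.5 TPM) also lay below those of both the DNMT1 and EGFP fusions, unlike the rest of the 9. None of the 11 droplet coat genes and none of the 11 transcription factors passed.

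Leaving out any of the fusion libraries leaves a lone library on its side, which is assumed to vary like the other side. Effect sizes alone are therefore given for these fits. All 9 genes kept their direction in them, but whether they passed depended on which library was left out. The log2 fold change of SCD was -0.75 without the DNMT3A library, -0.76 without DNMT3B, -0.55 without DNMT1 and -0.93 without EGFP. That of ACACA was -0.49, -0.61, -0.45 and -0.635 in that order. FASN depended on which of these libraries was left out, with a log2 fold change of -0.69 without the EGFP library and -0.16 without the DNMT1 library. With GC content and length in the fit 15 passed, all lower, the 9 and FASN (-0.64, adjusted p = 0.0238 in edgeR) and DGAT1 (-0.47, adjusted p = 0.038) among them. Over all 13882 genes tested in that fit, 1025 passed higher and 872 lower.

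**Figure D4:**
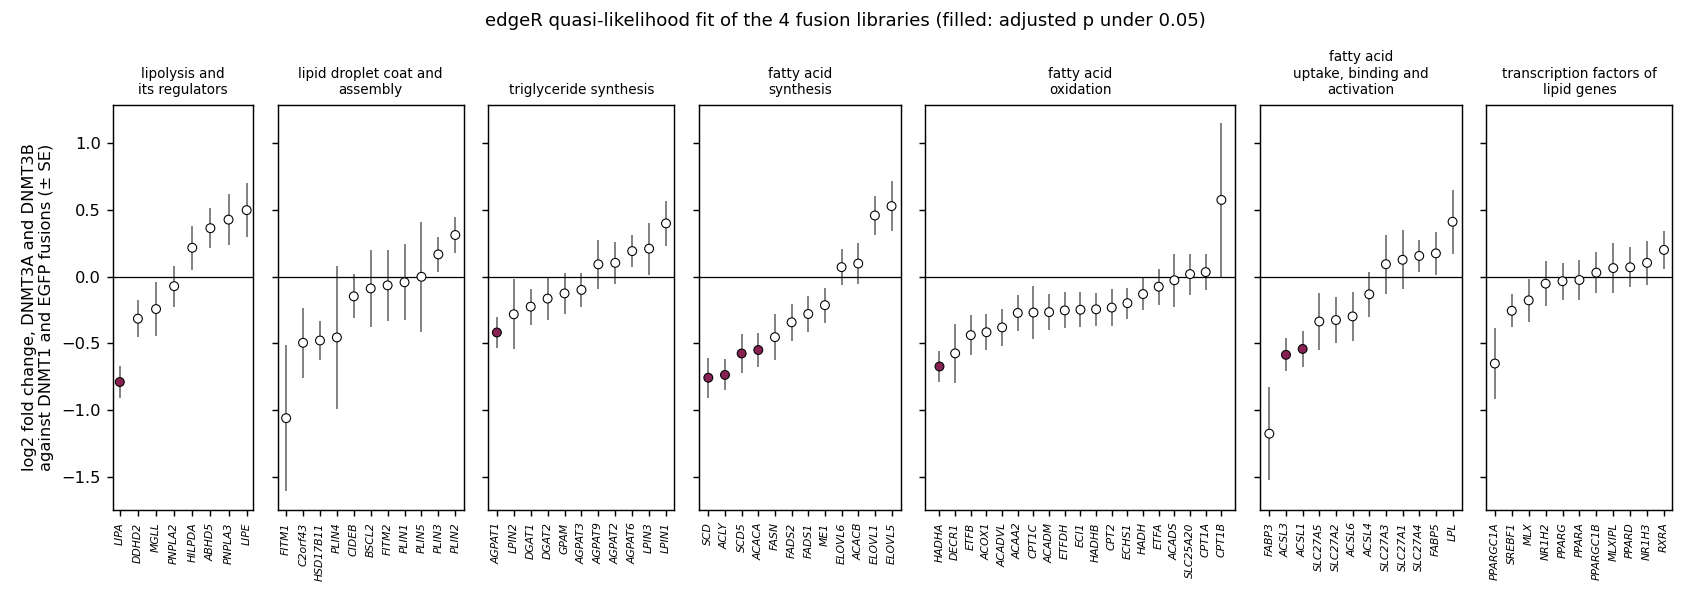
Log2 fold change with its SE (vertical axis) of dCas9-BFP-DNMT3A and dCas9-BFP-DNMT3B against dCas9-BFP-DNMT1 and dCas9-BFP-EGFP in the edgeR fit, for the 84 lipid genes tested (horizontal axis, ordered within each of 7 lists). Filled points passed an adjusted p-value of 0.05. They are 9 genes, all below 0, with 4 of them (SCD, ACLY, SCD5 and ACACA) in the fatty acid synthesis list.

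With all 4 fusions tested against pUC19 in edgeR, where the spread comes from the fusions alone, 0 of 86 lipid list genes passed (18 had an unadjusted p under 0.05), beside 0.0937% of 16001 genes higher and 0.644% lower. The lowest p-values belonged to ACSL4 (log2 fold change -1.11, SE 0.22, adjusted p = 0.0574), HILPDA (-0.995, SE 0.21, adjusted p = 0.0727) and SREBF1 (1.02, SE 0.22, adjusted p = 0.0739). In DESeq2 the log2 fold changes were -1.12 (ACSL4), -0.997 (HILPDA), 1.02 (SREBF1) and 0.83 (DGAT2), with pUC19 again a lone library. Among the 9 genes tested, PLIN3 (0.58, SE 0.21, adjusted p = 0.2) and PLIN2 (0.53, SE 0.24, adjusted p = 0.285) were above pUC19 with 4 of 4 fusions, and SCD (-0.65, adjusted p = 0.339), ACACA (-0.56, adjusted p = 0.297) and FASN (-0.51, adjusted p = 0.351) were below it with 4 of 4, but none of them passed in edgeR.

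The 5 genes whose log2(TPM + 0.1) followed that of G0S2 most closely over the 5 libraries, of 4046 genes with at least 20 reads in a library and a range of at least 1 log2 unit, were ZC3H6 (Pearson r 0.996), SCN9A (0.994), PIGV (0.992), SCN2A (0.989) and LOC100289511 (0.988). ZC3H6 was at 7.34 TPM with dCas9-BFP-EGFP, 4.82 with pUC19, 4.28 with dCas9-BFP-DNMT1, 2.96 with dCas9-BFP-DNMT3B and 2.88 with dCas9-BFP-DNMT3A. PIGV was at 12.1, 8.58, 7.31, 5.01 and 4.91 TPM in the same order of libraries. Their ranges were narrower than that of G0S2, and SCN9A, SCN2A and LOC100289511 stayed under 2 TPM. The r is over 5 points that are the same libraries for every gene, and 132 genes had r of at least 0.9 and 56 of at least 0.95. None of the 5 named belongs to the lipid lists, which hold only 89 of the 19716 genes with a read.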

How the data were processed

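Poly(A) RNA of 5 libraries, 1 per group, was size-selected as cDNA of about 240 bp, amplified in 12 PCR cycles and run on an Ion Proton instrument. The authors discarded low-quality, adaptor and short reads (under 30 nt) and aligned the rest with tmap to hg19 RefSeq RNA with at most 3 mismatches. Uniquely mapped reads were used, which lowers genes with near-identical copies. The tmap version, the RefSeq release and the use of strand are not given in the sources used here. The deposited tables hold the read count per gene, whole and not normalized, the TPM that the authors computed from it, and a coverage in percent, read here as the covered part of the transcript. Genes without a read have no row and were set to 0.

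Groups came from the sample titles. The 10 genes and the 7 lists were chosen with earlier results of these data known. A pseudocount of 0.1 TPM was added before taking ratios, which understates the change of low genes. Counting intervals (95%) are exact, conditional on the library totals, and hold no pseudocount. For single libraries an exact binomial test (two-sided, conditional on both totals) was run in scipy 1.17.1, and p-values were adjusted by Benjamini-Hochberg across the genes that had reads in the pair. The 4 fusions were compared with each other and with pUC19 by the edgeR 4.0.16 quasi-likelihood test (R 4.3.3, TMM, filterByExpr, Benjamini-Hochberg over all genes tested, threshold 0.05). The p-values of these fits measure the spread between constructs.

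Named beside the 10 genes were list genes called against pUC19 at 10 TPM or more (up to 5 per direction with the largest ratio), those past the threshold in a fit (up to 8 per direction with the lowest p), and the 5 genes most like G0S2. Genes named outside this rule (HILPDA, ACSL4 and SREBF1 in the fit against pUC19, DGAT2, PLIN1 and the calls under 10 TPM) were chosen after their values were seen. Positions are from GENCODE v44 on GRCh37, and promoter windows from RefSeq (GRCh38.p14 table), placed by exact match in GRCh37.

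Other settings tried were TMM scaling, 1 TPM as pseudocount or as minimum level, 0.05 as limit of the adjusted p-value, an edgeR exact test with an assumed coefficient of variation of 0.2, removal of a loess trend (span 0.3) on GC content and length (known for 89.25% of genes), DESeq2 1.42.0, size factors by median ratio, fits that kept low counts, and fits without each fusion. The tests were checked on simulated counts.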

Additional observations from a re-analysis of the deposited data

Results flagged for a closer look

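The difference of G0S2 from pUC19 had opposite directions in different fusions, which is why it is given again here. The log2 ratio to pUC19 with dCas9-BFP-EGFP (1.46) exceeded that with dCas9-BFP-DNMT3A (-1.69) by 3.15 and that with dCas9-BFP-DNMT3B (-1.45) by 2.92. Each side rests on 1 library, so these differences were not tested, and they were known when G0S2 was chosen. The 166 reads with dCas9-BFP-EGFP and the 20 and 21 reads with dCas9-BFP-DNMT3A and dCas9-BFP-DNMT3B set their precision.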

How the results depend on the processing

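No paired analysis was possible because each group has 1 library. With an edgeR exact test that assumes a coefficient of variation of 0.2 between replicates, the counts of called genes fell to 0 in every comparison with pUC19, both for the 10 genes (from 2, 2 and 1 with dCas9-BFP-DNMT3A, dCas9-BFP-DNMT3B and dCas9-BFP-EGFP) and for the lipid lists (from 5, 5, 8 and 8 with the DNMT1, DNMT3A, DNMT3B and EGFP fusions). The counts over all genes under that assumption are not given here. With a pseudocount of 1 TPM the lists had 3 calls with dCas9-BFP-DNMT1 and 3 with dCas9-BFP-DNMT3B, and G0S2 and SCD remained called, while LPIN1 and ACSL4 were lost with dCas9-BFP-DNMT3B. With the GC and length trend removed HILPDA and ELOVL5 were lost with dCas9-BFP-EGFP. In the edgeR fit between the fusions, the 9 list genes became 15 with GC content and length as an offset (81 genes tested), 5 without the filter on low counts, all 5 among the 9 (ACACA then had an adjusted p of 0.0529), and 0 to 19 when a fusion was left out, 0 without the DNMT3A or the DNMT3B library, where the lone sample left is assumed to vary like the other group. DESeq2 gave 11, with ELOVL1 and ELOVL5 as additions, both higher, beside 1374 higher and 772 lower of all 19379 genes. None of the 9 changed direction under any of these. In the fit of all fusions against pUC19, 0 became 4 with DESeq2 and 1 (ACSL4) without the filter, and stayed 0 when a fusion was left out. The ratios of the 10 genes to pUC19 or dCas9-BFP-EGFP, 70 in all, turned sign 7 times with the GC and length trend removed and 6 times with TMM, all in PNPLA2, ABHD5, PLIN2, DGAT1 or, with dCas9-BFP-DNMT1, G0S2, and at log2 ratios of at most 0.172 in size. Over all genes, TMM raised the higher share of calls with dCas9-BFP-DNMT1 from 29.6% to 46.2%. Depth limits G0S2 most, at 20 reads in its lowest library.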
